A study of Mus musculus with 6 samples.

Results

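The TET dioxygenase genes *Tet2* and *Tet3* and 8 genes of base excision repair, *Tdg*, *Mbd4*, *Ung*, *Smug1*, *Neil1*, *Apex1*, *Parp1* and *Xrcc1*, were followed over the 6 arrays of a study on the step from primed to naive pluripotency. These 10 genes were taken as named members of the pathway, with earlier results of these data known, out of 17097 genes that have a probe set with a single gene symbol. They are measured by 15 probe sets, and every one of these is described. *Tet1* was not analysed here. The cells derive from E14tg2a, a mouse embryonic stem cell (ESC) line. For ESCs the study's methods give serum medium with LIF as general culture. Under the induction of EpiLCs they give N2B27 medium with CHIR99021, PD0325901 and LIF. Which medium the ESCs on the array had was not established, and their label gives no genotype. Epiblast-like cells (EpiLCs), which resemble the primed post-implantation epiblast, were induced from ESCs with activin A, bFGF and KSR and sampled as EpiLCs (d2) and EpiLCs (d4), both with a scramble shRNA. EpiLCs + PRDM14 carried the same scramble shRNA and were given doxycycline after EpiLC induction to switch on a *Prdm14* transgene. Their label gives no day, and by the design EpiLCs (d4) are the cultures kept as long without PRDM14. The remaining arrays are EpiLCs (d2) labelled *Tet1*/*Tet2* KD and EpiLCs + PRDM14 labelled *Tet1*/*Tet2* KD. By the study's methods the *Prdm14* cassette was placed in the genome by the piggyBac transposon, the shRNAs were delivered by lentivirus, and drug-resistant colonies were picked, so a culture may stand for a single clone.

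Each condition has 1 array. There is no replicate error, no test was possible, and every difference is that of a pair of cultures. Values are log2 signals made by robust multi-array average (RMA), after every array was shifted to the median of EpiLCs (d2). Where a gene has several probe sets, the one brightest on average over the 6 arrays stands for it, and differences are log2 differences of such values. A difference counts as past the threshold when it reaches 1.5-fold, a log2 difference of 0.58. Beside the members' counts stands the share of all 17097 genes that pass in the same direction. Probe sets differ in brightness for reasons of design, so levels are compared only within a probe set.

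TET enzymes oxidize 5-methylcytosine to 5-hydroxymethylcytosine and on to 5-formylcytosine and 5-carboxylcytosine. TDG cuts the latter pair of bases, and also mispaired thymine, out of the DNA strand. The gap is then passed on to base excision repair, in which APEX1 cleaves the abasic site, PARP1 binds the nick and marks it with ADP-ribose, and XRCC1 holds polymerase and ligase in place. Together these steps can replace a methylated cytosine by an unmethylated one, which is known as active demethylation. PRDM14 is a PR domain protein of naive ESCs and primordial germ cells.

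Sequences are shown for the hairpin meant to lower *Tet2* with its control, since the KD labels rest on it in part. In these hairpins the strand that names the target is in capitals and the loop with the returning strand in lower case.
*Tet2* hairpin: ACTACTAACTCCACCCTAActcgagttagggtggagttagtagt
Scramble (*Tet2*) hairpin: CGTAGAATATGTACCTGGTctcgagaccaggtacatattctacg
Both target strands have 19 bases, of which 8 are G or C. They share the same base at 7 positions and differ in base composition. *Tet2* lies on chromosome 3 (133463677 to 133545136, RefSeq annotation of GRCm38.p6). Where the hairpin target and the probe sets lie in the transcript was not analysed here.

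Promoters are shown for the members that passed the threshold with PRDM14 or with the KD label, *Tet2* and *Tdg*, then *Tet3* and *Neil1*, which were high in the same pair of arrays. Each sequence gives the 250 bases before the RefSeq start site in GRCm38.p6, 5′ to 3′ in the direction of the gene, with CpG dinucleotides in capitals.
*Tet2* promoter, chr3:133544391-133544640, minus strand: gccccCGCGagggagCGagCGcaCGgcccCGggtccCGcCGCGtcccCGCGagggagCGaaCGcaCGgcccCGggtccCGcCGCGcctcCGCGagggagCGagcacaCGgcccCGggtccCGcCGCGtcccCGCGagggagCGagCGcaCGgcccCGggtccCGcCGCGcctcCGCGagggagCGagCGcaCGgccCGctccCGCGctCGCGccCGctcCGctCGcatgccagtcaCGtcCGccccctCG
*Tdg* promoter, chr10:82629588-82629837, plus strand: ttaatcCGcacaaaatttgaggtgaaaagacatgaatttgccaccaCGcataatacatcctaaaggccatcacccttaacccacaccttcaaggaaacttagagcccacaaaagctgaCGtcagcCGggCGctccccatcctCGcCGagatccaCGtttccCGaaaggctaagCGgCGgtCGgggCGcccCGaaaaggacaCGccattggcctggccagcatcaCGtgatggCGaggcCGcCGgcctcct
*Tet3* promoter, chr6:83441679-83441928, minus strand: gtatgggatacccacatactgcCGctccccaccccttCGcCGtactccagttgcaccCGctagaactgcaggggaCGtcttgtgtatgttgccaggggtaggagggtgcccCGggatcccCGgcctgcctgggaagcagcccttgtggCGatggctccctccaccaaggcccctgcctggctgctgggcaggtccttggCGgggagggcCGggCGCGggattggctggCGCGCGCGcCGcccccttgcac
*Neil1* promoter, chr9:57148306-57148555, minus strand: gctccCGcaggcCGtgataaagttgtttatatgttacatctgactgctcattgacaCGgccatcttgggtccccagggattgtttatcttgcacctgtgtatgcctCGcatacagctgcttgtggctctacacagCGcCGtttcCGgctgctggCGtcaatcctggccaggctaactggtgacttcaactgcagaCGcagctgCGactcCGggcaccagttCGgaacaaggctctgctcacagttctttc
The start site is that of 1 transcript, and in all 4 genes the annotated gene reaches further upstream. The *Tet2* window, counted with 50 further bases after the start, held 57 CpGs. Over all 32851 RefSeq promoters of this length the median was 7, with quartiles of 3 and 20, and 99.8% held fewer than *Tet2*. The counts were 26 for *Tdg*, 22 for *Tet3* and 17 for *Neil1*, and 31 for *Apex1*, 25 for *Mbd4*, 20 for *Parp1*, 16 for *Ung*, 15 for *Smug1* and 7 for *Xrcc1*. Thus 9 of 10 members lay above the median promoter in CpG count. A GC box (GGGCGG on either strand) was found in 7 of 10 member promoters and in 35.7% of all promoters, and CCAAT in 6 of 10 and in 37.4%. The E2F letters TTTCCCGC or TTTGGCGC were found in 0 of 10 and in 1.56%. These are matches of letters and not binding sites.

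The arrays differ in ways that touch the members. The deposited medians were 5.07 in both KD arrays and 5.28 to 5.29 in the other 4, and the offset was between -0.16 and -0.26 in every signal range, which the shift to a common median takes out on average. Whether the KD arrays were normalized in a run of their own was not tested, and such a run and the KD label cannot be told apart. The pluripotency markers moved with the labels. All 7 naive markers were past the threshold in ESCs and in EpiLCs + PRDM14 relative to EpiLCs (d2), while 4 of 5 primed markers were lower in ESCs and 5 of 5 in EpiLCs + PRDM14. Between the KD and scramble arrays 3 of 7 naive markers were higher at d2, and with PRDM14 2 of 7 naive markers were higher and 1 of 5 primed markers was lower. Of 6 fibroblast markers 5 lay under the array median in every array. The signal of *Prdm14* itself reached 6.95 in ESCs but 4.95 in EpiLCs + PRDM14, close to the 5.04 of EpiLCs (d2). Its probe set gave no sign of the transgene, whether it lies in the transgene was not tested, and the PRDM14 cultures too are called by their label only. In cultures of this kind fewer cells of a type and less RNA per cell cannot be told apart.

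*Tet2* is, beside *Tet1*, a gene the shRNAs were aimed at. Its brightest probe set, 1455300_PM_at, read 8.54 in EpiLCs (d2) and 8.36 in EpiLCs (d4), 8.92 in ESCs and 8.51 in EpiLCs + PRDM14, then 8.71 in EpiLCs (d2) labelled KD and 7.97 in EpiLCs + PRDM14 labelled KD. ESCs were highest, and the only array clearly under the rest was EpiLCs + PRDM14 labelled KD. Relative to the scramble array the difference was 0.17 at d2 and -0.54 with PRDM14, which misses the threshold. *Tet2* was thus not lower in EpiLCs (d2) labelled KD on this scale, and without the shift of the medians this difference turned to -0.04. The PRDM14 pair gave -0.54 with the shift but passed the threshold at -0.75 without it and at -0.81 when arrays were set to reference genes. For these reasons both cultures are called by their label only. By the study's methods the knockdown was checked by qRT-PCR and western blotting, and those measurements were not analysed here. The second *Tet2* probe set, 1438781_PM_at, read 5.95, 5.98, 6.39, 6.09, 6.16 and 5.92 in the same order of arrays. It too was highest in ESCs and lowest in EpiLCs + PRDM14 labelled KD, but over a smaller range. Its KD differences were 0.21 at d2 and -0.17 with PRDM14.

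*Tet3* encodes a TET enzyme that is known from, but not limited to, the oocyte and zygote. Its 1 probe set, 1439324_PM_at, read 4.79 in EpiLCs (d2) and 4.80 in EpiLCs (d4), 4.97 in ESCs and 4.83 in EpiLCs + PRDM14, then 5.50 in EpiLCs (d2) labelled KD and 5.52 in EpiLCs + PRDM14 labelled KD. The KD arrays stood above the other 4, which lay close together. This probe set has a mean under that of the median probe set (5.28), a range in which signal and background are hard to separate. The KD differences of *Tet3* were 0.70 at d2 and 0.69 with PRDM14. Both fell short of the threshold when medians were not shifted, at 0.49 and 0.48, and when arrays were set to reference genes, at 0.56 and 0.42.

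**Figure D1:**
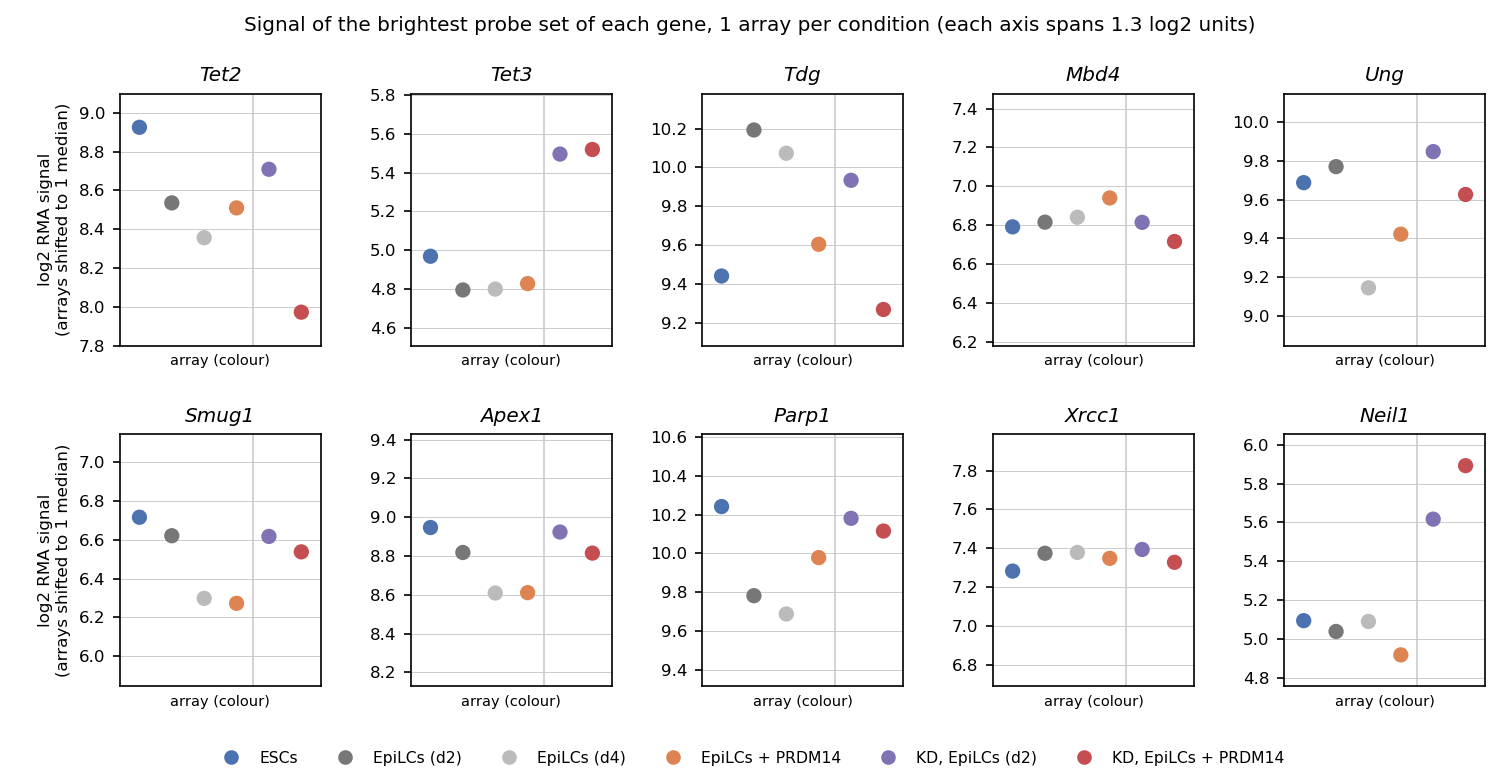
Log2 RMA signal of the brightest probe set of each member (y axis, arrays shifted to a common median, each panel spanning the same number of log2 units) in the 6 arrays, 1 point per array, with the KD-labelled arrays right of the grey line. *Tdg* is highest in EpiLCs (d2) at 10.19 and lowest in EpiLCs + PRDM14 labelled KD at 9.27, *Tet3* and *Neil1* are high in the KD arrays, and *Xrcc1* stays between 7.28 and 7.39.

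*Tdg* encodes thymine DNA glycosylase, which removes 5-formylcytosine and 5-carboxylcytosine. The brightest probe set, 1416790_PM_a_at, read 10.19 in EpiLCs (d2) and 10.07 in EpiLCs (d4), 9.44 in ESCs and 9.60 in EpiLCs + PRDM14, then 9.93 in EpiLCs (d2) labelled KD and 9.27 in EpiLCs + PRDM14 labelled KD. All 3 EpiLC arrays without PRDM14 stood above ESCs and above both arrays with PRDM14. The difference from EpiLCs (d2) was -0.75 in ESCs and -0.59 in EpiLCs + PRDM14, both past the threshold, against -0.12 in EpiLCs (d4). The PRDM14 value lies at the threshold itself, and it was -0.55 after quantile normalization and -0.47 when arrays were set to reference genes. Relative to EpiLCs (d4) *Tdg* differed by -0.47 with PRDM14. In the KD pair the PRDM14 difference was -0.67.

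The second *Tdg* probe set, 1448462_PM_at, read 9.51 in EpiLCs (d2) and 9.41 in EpiLCs (d4), 8.58 in ESCs and 8.81 in EpiLCs + PRDM14, then 9.31 in EpiLCs (d2) labelled KD and 8.58 in EpiLCs + PRDM14 labelled KD. The same arrays were high and low in it, with larger differences. They were -0.94 in ESCs, -0.70 with PRDM14 and -0.74 with PRDM14 in the KD pair, and -0.60 for EpiLCs + PRDM14 against EpiLCs (d4). A further probe set that names *Tdg* together with the pseudogene *Tdg-ps2* was left out, and how far transcripts of such near copies reach these probe sets was not tested. The ESC and PRDM14 differences share the EpiLCs (d2) array, so their common sign is not independent. In the KD pair, which shares no array with them, *Tdg* was also lower with PRDM14, though no KD array of EpiLCs (d4) stands beside it.

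*Mbd4* encodes a glycosylase that binds methylated CpG and removes thymine or uracil opposite guanine. Its brightest probe set, 1449490_PM_at, read 6.82 in EpiLCs (d2) and 6.84 in EpiLCs (d4), 6.79 in ESCs and 6.94 in EpiLCs + PRDM14, then 6.81 in EpiLCs (d2) labelled KD and 6.72 in EpiLCs + PRDM14 labelled KD. The *Mbd4* difference of greatest size was -0.22, between the KD and scramble arrays with PRDM14. The second probe set, 1441079_PM_at, lay between 5.17 and 5.35 in all arrays.

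*Ung* encodes the main uracil DNA glycosylase. Its probe set, 1425753_PM_a_at, read 9.77 in EpiLCs (d2) and 9.15 in EpiLCs (d4), 9.69 in ESCs and 9.42 in EpiLCs + PRDM14, then 9.85 in EpiLCs (d2) labelled KD and 9.63 in EpiLCs + PRDM14 labelled KD. EpiLCs (d4) were lowest, with EpiLCs + PRDM14 next. *Ung* was the only member past the threshold between the EpiLC days, at -0.62 for EpiLCs (d4) minus EpiLCs (d2). With PRDM14 it differed by -0.35 from EpiLCs (d2) and by 0.28 from EpiLCs (d4).

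*Smug1* encodes a further uracil glycosylase, which also removes 5-hydroxymethyluracil. Its probe set, 1428763_PM_at, read 6.62 in EpiLCs (d2) and 6.30 in EpiLCs (d4), 6.72 in ESCs and 6.27 in EpiLCs + PRDM14, then 6.62 in EpiLCs (d2) labelled KD and 6.54 in EpiLCs + PRDM14 labelled KD. EpiLCs (d4) and EpiLCs + PRDM14 were the lowest arrays for *Smug1*, as they were for *Ung*. Neither the difference of -0.32 for EpiLCs (d4) nor that of -0.35 for EpiLCs + PRDM14 passed the threshold. The pair EpiLCs + PRDM14 and EpiLCs (d4) differed by -0.03 in *Smug1*.

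*Neil1* encodes a glycosylase for oxidized bases that also cleaves the strand. Its probe set, 1452871_PM_at, read 5.04 in EpiLCs (d2) and 5.09 in EpiLCs (d4), 5.09 in ESCs and 4.92 in EpiLCs + PRDM14, then 5.62 in EpiLCs (d2) labelled KD and 5.89 in EpiLCs + PRDM14 labelled KD. The pattern was that of *Tet3*, with the KD arrays above all others and a mean signal under that of the median probe set. The KD difference was 0.58 at d2, just short of the threshold, and 0.98 with PRDM14. The latter was 0.76 without a shift of the medians and 0.71 with arrays set to reference genes.

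*Apex1* encodes the main abasic site endonuclease. Its probe set, 1416135_PM_at, read 8.82 in EpiLCs (d2) and 8.61 in EpiLCs (d4), 8.95 in ESCs and 8.61 in EpiLCs + PRDM14, then 8.92 in EpiLCs (d2) labelled KD and 8.82 in EpiLCs + PRDM14 labelled KD. EpiLCs (d4) and EpiLCs + PRDM14 were again the lowest pair, each at -0.21 from EpiLCs (d2), and neither passed the threshold. A probe set that names *Apex1* together with *Pip4p1* was left out.

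*Parp1* encodes the main nuclear ADP-ribose polymerase, and 3 probe sets measure it. The brightest, 1435368_PM_a_at, read 9.78 in EpiLCs (d2) and 9.69 in EpiLCs (d4), 10.24 in ESCs and 9.98 in EpiLCs + PRDM14, then 10.18 in EpiLCs (d2) labelled KD and 10.12 in EpiLCs + PRDM14 labelled KD. ESCs and the KD arrays were highest and EpiLCs (d4) lowest. The probe set 1422502_PM_at read 9.64, 9.45, 10.16, 9.74, 10.13 and 10.04 in the same order of arrays. The probe set 1422503_PM_s_at read 9.56, 9.37, 10.02, 9.69, 10.09 and 9.83. All 3 put EpiLCs (d4) lowest, and ESCs or the array of EpiLCs (d2) labelled KD highest. The brightest differed from EpiLCs (d2) by 0.46 in ESCs and by 0.20 with PRDM14. Its KD difference was 0.40 at d2 and 0.14 with PRDM14, and the latter turned to -0.08 without a shift of the medians.

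*Xrcc1* encodes the scaffold of single-strand break repair. Its probe set, 1416587_PM_a_at, read 7.37 in EpiLCs (d2) and 7.38 in EpiLCs (d4), 7.28 in ESCs and 7.35 in EpiLCs + PRDM14, then 7.39 in EpiLCs (d2) labelled KD and 7.33 in EpiLCs + PRDM14 labelled KD. Its difference of greatest size was -0.09, in ESCs minus EpiLCs (d2).

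Between naive and primed cultures, that is ESCs minus EpiLCs (d2), 1 of 10 members was lower (*Tdg*) and 0 were higher. Among all genes 2.35% were lower and 2.64% higher. The members ranged from -0.75 (*Tdg*) to 0.46 (*Parp1*), with a median of 0.08 beside 0.00 for all genes. For EpiLCs (d4) minus EpiLCs (d2) 1 member was lower (*Ung*) and 0 higher, against 1.12% and 2.18% of all genes. The member median was -0.11 and that of all genes -0.01.

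The PRDM14 comparison asks whether the enzymes of active demethylation differ at the transcript level in the cultures labelled PRDM14. For EpiLCs + PRDM14 minus EpiLCs (d2) 1 of 10 members was lower (*Tdg*) and 0 were higher, against 1.91% and 2.72% of all genes. The member median was -0.07 and 7 of 10 differences were under 0. By the study's methods this pair also spans longer culture and a change of medium, which EpiLCs (d4) share. Relative to EpiLCs (d4), 0 members passed in either direction, where 2.17% of all genes were lower and 1.86% higher. *Tet2* differed by -0.03 from EpiLCs (d2) and by 0.15 from EpiLCs (d4), and *Tet3* by 0.03 from each. A count of 1 in 10 is 1 gene, and no more was read from these shares. All of these differences and those of ESCs rest on the same array of EpiLCs (d2) or on that of EpiLCs + PRDM14.

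**Figure D2:**
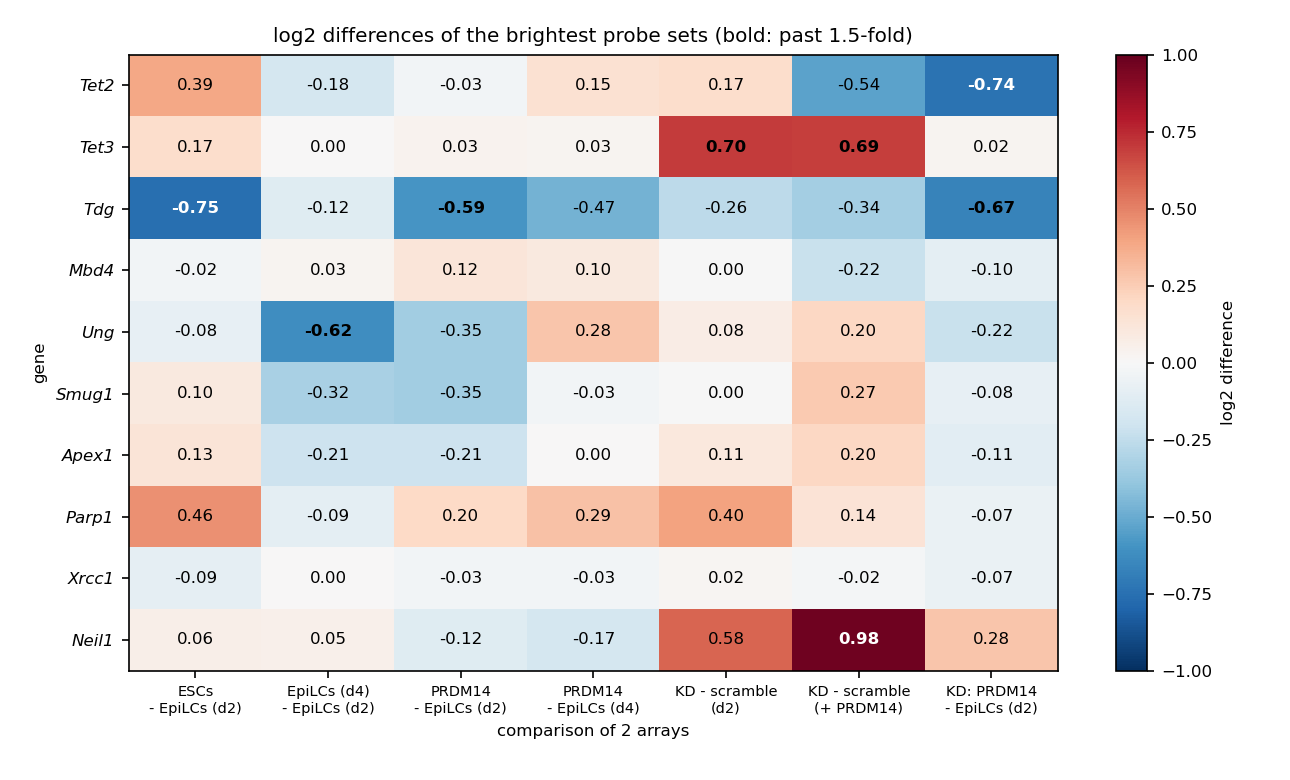
Log2 differences of the 10 members (rows, brightest probe set) in 7 pairs of arrays (columns), with the value in each cell and bold type for those past the 1.5-fold threshold. *Tdg* is low in the ESC column at -0.75 and in both PRDM14 minus EpiLCs (d2) columns, *Tet3* and *Neil1* are high in the KD minus scramble columns, and most other cells lie near 0.

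Between the KD and scramble arrays at d2, 1 of 10 members was higher (*Tet3*) and 0 were lower, where 3.3% of all genes were higher and 2.25% lower. With PRDM14, 2 members were higher (*Tet3* and *Neil1*) and 0 lower, where 3.58% were higher and 3.38% lower. This split depends on the scaling. Without the shift 1 member was higher (*Neil1*) and 1 lower (*Tet2*), and with arrays set to reference genes 1 was higher (*Neil1*) and 2 lower (*Tet2* at -0.81 and *Tdg* at -0.60). *Tet3* and *Neil1* have dim probe sets, and without dim probe sets the count was 0 in each of these comparisons. *Tet3* and *Neil1* were also the 2 members for which both KD arrays stood above all 4 others, and 0 members had both KD arrays below. Of all genes 23.5% had the KD arrays above and 19.9% below, so a position of this kind was common on these arrays.

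With the KD label, 2 of 10 members were lower in EpiLCs + PRDM14 than in EpiLCs (d2), *Tet2* at -0.74 and *Tdg* at -0.67, and 0 were higher. Of all genes 2.53% were lower and 2.12% higher. The second *Tet2* probe set gave -0.24, and the gap of 0.50 between the *Tet2* probe sets was the largest for any member in any comparison. The smallest such gap was 0.02. The PRDM14 difference in the KD pair less that in the scramble pair was -0.71 for *Tet2* and passed the threshold, as it did for 2.25% of all genes in that direction and 0.994% in the other. With the mean of both probe sets it was -0.54 and did not pass. For *Tdg* this difference of differences was -0.08, so that *Tdg* was lower in EpiLCs + PRDM14 than in EpiLCs (d2) by a similar amount under both labels. No array of EpiLCs (d4) carries the KD label. In the KD pair PRDM14 therefore cannot be told apart from the longer culture and the change of medium after EpiLC induction. The difference between the labels was not tested.

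**Figure D3:**
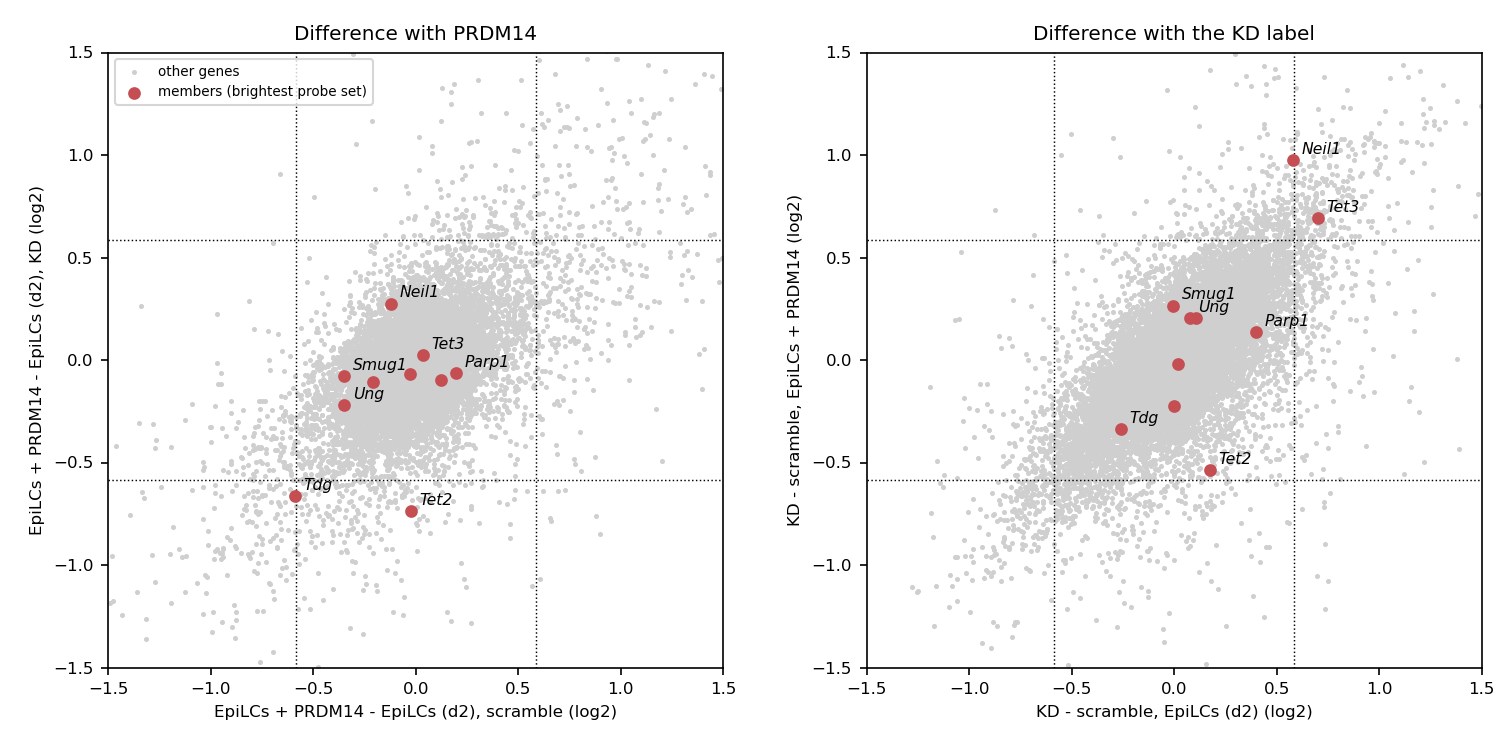
Left, log2 difference of EpiLCs + PRDM14 from EpiLCs (d2) in the scramble arrays (x axis) and in the KD arrays (y axis). Right, log2 difference of the KD from the scramble array at d2 (x axis) and with PRDM14 (y axis). Grey points are the other genes (those beyond 1.5 log2 units are outside the axes), red points the 10 members, and dotted lines the 1.5-fold threshold. *Tdg* lies low on both axes at left, *Tet2* low only on the KD axis at -0.74, and *Tet3* and *Neil1* high on both axes at right.

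Other genes of the pathway were taken from lists of 37 genes, of which 34 were measured. None of 5 other glycosylases, 5 genes of abasic site and end processing, 7 genes for polymerases, the clamp with its loader and ligases, or 5 genes of ADP-ribose turnover, 22 in all, passed the threshold in any of the 7 pairs after the shift of the medians. Among all genes 1.12% to 3.58% passed per pair and direction. At such shares few of 22 genes would be past it in any pair, and no more was read from the count. The nearest were *Ogg1*, the glycosylase for 8-oxoguanine, with KD differences of -0.56 at d2 and with PRDM14, and *Mutyh*, which removes adenine opposite that base, at -0.56 in EpiLCs (d4) minus EpiLCs (d2). Without the shift 4 of the 22 were past the threshold in the KD array at d2 and 3 in that with PRDM14, all lower, with *Ogg1* at -0.77 and -0.78 and *Neil3*, a glycosylase like *Neil1*, at -0.61 and -0.70. The differences that passed were all among 9 partners of TET enzymes and suppliers of their cofactor and among 3 genes of the APOBEC family. Over the 34 genes, 3 were higher and 2 lower in ESCs and likewise with PRDM14, each relative to EpiLCs (d2). Of all genes 2.64% were higher and 2.35% lower in ESCs, and 2.72% and 1.91% with PRDM14. The lists were chosen with earlier results of these data known, and no more was read from these counts.

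*Idh1* and *Idh2* encode isocitrate dehydrogenases, which make the 2-oxoglutarate that TET enzymes consume. *Idh1* read 9.42 in EpiLCs (d2) and 9.52 in EpiLCs (d4), 10.85 in ESCs and 9.81 in EpiLCs + PRDM14, then 9.84 in EpiLCs (d2) labelled KD and 9.82 in EpiLCs + PRDM14 labelled KD. *Idh2* read 7.71, 7.36, 8.73, 8.48, 8.54 and 8.76 in the same order. Both were lowest in scramble EpiLCs without PRDM14. In ESCs *Idh1* was higher than in EpiLCs (d2) by 1.42 and *Idh2* by 1.01. With PRDM14 *Idh2* was higher by 0.76 than in EpiLCs (d2) and by 1.11 than in EpiLCs (d4), while *Idh1* differed by 0.39 from EpiLCs (d2). In the KD array at d2 *Idh2* was higher by 0.83 than in the scramble array.

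The GADD45 proteins are stress-induced adaptors that have been linked to TET and TDG in demethylation. Their genes did not move as a group. *Gadd45b* was higher than in EpiLCs (d2) by 1.63 in ESCs and by 0.95 with PRDM14, and by 1.04 with PRDM14 in the KD pair. EpiLCs (d4) without PRDM14 were also at 0.48 for *Gadd45b* relative to EpiLCs (d2). Relative to EpiLCs (d4), EpiLCs + PRDM14 were at 0.47 for *Gadd45b* and at -0.41 for *Gadd45a*, both within the threshold. *Gadd45a* was at -1.97 in ESCs and at -0.72 with PRDM14 relative to EpiLCs (d2), but at 0.00 with PRDM14 in the KD pair. The difference between these PRDM14 values, 0.72, was past the threshold and was not tested, and relative to its scramble array the KD array with PRDM14 was at 0.65. *Gadd45a* and *Gadd45g* were both low in ESCs, the reverse of *Gadd45b*. *Gadd45g* was at -2.89 there, with a signal of 4.38 against 7.27 in EpiLCs (d2). With PRDM14 it was at -0.48 relative to EpiLCs (d2), within the threshold, at -0.77 relative to EpiLCs (d4) and at -1.04 with PRDM14 in the KD pair. *Cxxc5* encodes a CXXC domain protein known to bind TET2. It was higher than in EpiLCs (d2) by 0.62 in EpiLCs (d4) and by 0.65 with PRDM14, and by 0.71 in the KD array at d2 relative to scramble. Some proteins of the APOBEC family change cytosine to uracil, the base that UNG and SMUG1 remove. Among the listed genes of this family *Apobec2* was at -0.94 with PRDM14 relative to EpiLCs (d2), at -0.74 relative to EpiLCs (d4) and at -0.96 in the KD pair. Whether its product acts on cytosine was not tested. *Apobec3*, which encodes a cytidine deaminase that restricts retroviruses, was at -0.64 in EpiLCs (d4) relative to EpiLCs (d2).

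**Figure D4:**
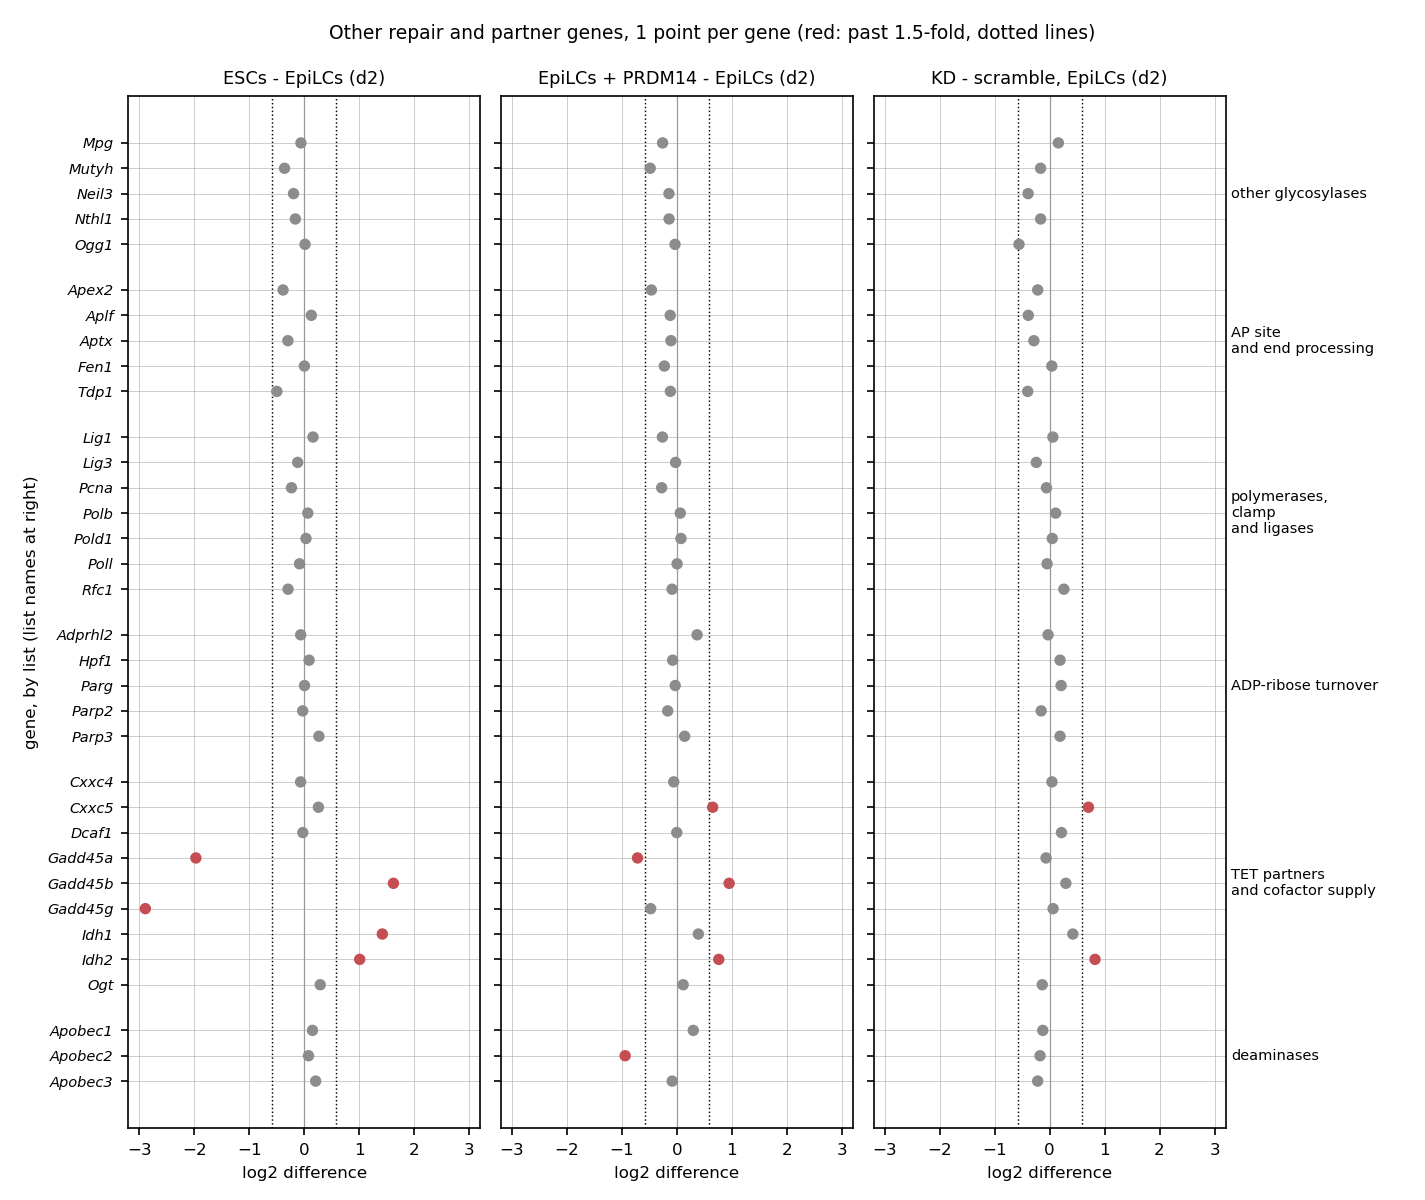
Log2 differences (x axis) of 34 further repair and partner genes (y axis, grouped by list) in ESCs minus EpiLCs (d2), EpiLCs + PRDM14 minus EpiLCs (d2), and KD minus scramble at d2, 1 point per gene, red when past the 1.5-fold threshold (dotted lines). After the shift of the medians the repair enzymes stay between the lines and the points outside are *Idh1*, *Idh2*, *Cxxc5*, the *Gadd45* genes and *Apobec2*.

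The genes most like *Tet2* over the 6 arrays were *AI467606* (Pearson's r = 0.96), *Liph* (0.95), *Cyct* (0.94), *Epb41l4a* (0.94) and *Stag3* (0.91), among 1092 genes. Only genes with a range of at least 1 log2 unit and a mean at or above that of the median probe set (5.28) were compared. Of the genes just named, each was chosen under both limits. Each was highest in ESCs and lowest in EpiLCs + PRDM14 labelled KD, as *Tet2* was. Their choice by likeness to *Tet2* on these arrays favours such an order, so it adds nothing on *Tet2*. *Liph* read 6.95 in EpiLCs (d2) and 6.32 in EpiLCs (d4), 7.55 in ESCs and 6.68 in EpiLCs + PRDM14, then 6.95 in EpiLCs (d2) labelled KD and 6.07 in EpiLCs + PRDM14 labelled KD. *Neil1* had the largest range of all members, 0.98, and the genes most like it were *Krt5*, *Gipc2*, *1600010M07Rik*, *Slc25a44* and *Zbtb49*, each with r = 0.98. With a mean of 5.27 *Neil1* lies just under the limit itself, so genes as dim as *Neil1* were not compared with it. All 5 of the genes named for *Neil1* were high in both KD arrays, such as *Krt5* at 6.21 and 6.44 there against 5.42 to 5.43 elsewhere. They were picked for likeness to *Neil1*, which is itself high there, so this follows from the choice. Their KD values also helped them past the limits on range and signal. *Zbtb49*, for example, read 6.09 and 6.17 in the KD arrays but 5.15 to 5.32 in the others. These correlations run over 6 arrays that share a line and, for the KD arrays, an offset in the deposited medians, and they are given as a description.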

How the data were processed

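Total RNA of E14tg2a cultures was labelled with the GeneChip IVT Express Kit and hybridized to Affymetrix mouse array strips, 1 per condition. The authors deposited log2 signals, made by RMA with default settings. Affymetrix Expression Console is the software in the submitters' processing notes, with a version not given in the sources here. Of 45141 probe sets 104 controls were left out, and the platform annotation gives 1 symbol for 28898 of the rest, several for 551 and none for 15588. Each array was shifted to the median of EpiLCs (d2), and genes took the values of their brightest probe set. The differences and their counts were made without a signal filter. Differences were called past 1.5-fold, the threshold in the study's methods. With 1 array per condition there is no test across arrays, and precision is limited by their number. All 10 members and all pathway genes past the threshold are named. For *Tet2* and the member with the widest range, the 5 most correlated genes are named. The correlations alone had a signal filter, a mean at or above that of the median probe set, beside the limit on range. The members and lists were chosen with earlier results of these data known. The threshold script was tested on simulated data. Alternatives were a 2-fold threshold, no shift, quantile normalization, a shift by reference genes, no dim probe sets, the mean of a gene's probe sets, any probe set, and no probe sets with _x_ or _s_ in their ID. Python 3.11.15, numpy 2.4.6, pandas 2.3.3 and matplotlib 3.10.9 were used. Hairpins were read from the study's oligonucleotide table and promoters from RefSeq, in which all 10 members matched.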

Additional observations from a re-analysis of the deposited data

Results flagged for a closer look

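In 3 members the PRDM14 difference, from EpiLCs (d2) to EpiLCs + PRDM14, had opposite signs in the scramble and in the KD-labelled arrays. It was 0.12 and -0.10 for *Mbd4*, 0.20 and -0.07 for *Parp1*, and -0.12 and 0.28 for *Neil1*. None of these values passed 1.5-fold, each side is 1 pair of arrays, and the difference between the sides was not tested.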

How the results depend on the processing

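At a 2-fold threshold 0 members passed in ESCs, EpiLCs (d4) or EpiLCs + PRDM14 (under either label) relative to their EpiLCs (d2), or in KD minus scramble at d2 or with PRDM14. The PRDM14 count under the scramble label was also 0 after quantile normalization and after a shift by reference genes. With the mean of probe sets it was 1 (*Tdg*) in the KD pair and 0 for the difference between the labels. Counting any probe set gave 1 (*Tdg*) against EpiLCs (d4). KD minus scramble at d2 gave 0 without a shift, after a shift by reference genes and without dim probe sets, and with PRDM14 it gave 0 without dim probe sets. In the latter pair the genes also changed, to *Neil1* higher and *Tet2* lower without a shift and to *Neil1* higher and *Tet2* and *Tdg* lower after a shift by reference genes, with *Tet3* lost in both. The number of members with both KD arrays outside the others was 4 without a shift and after a shift by reference genes, with *Mbd4* and *Xrcc1* below and *Tet3* and *Neil1* above, and 0 without dim probe sets. The share of all genes so placed was not counted under these settings. Both leave the KD arrays low as a whole, and at d2 the median KD difference of all probe sets was -0.19 without a shift and -0.12 with reference genes. The places of *Mbd4* and *Xrcc1* below are thus not read as a trait of these genes. Of the 22 other repair genes, in an alternative chosen after seeing the data, 4 (*Ogg1*, *Neil3*, *Aplf*, *Tdp1*) passed in KD minus scramble at d2 and 3 (*Ogg1*, *Neil3*, *Lig3*) with PRDM14 without a shift, against 0 with it. A shift by reference genes gave 1 (*Ogg1*) and 3, and 1 (*Mutyh*) in EpiLCs (d4) relative to EpiLCs (d2). The dim filter leaves out 2 members, *Tet3* and *Neil1*. After the shift by reference genes the median of all probe sets was 0.11 in EpiLCs + PRDM14 minus EpiLCs (d2) and -0.26 in KD minus scramble with PRDM14, against -0.01 and 0.01 after the shift of the medians, and the latter was -0.20 without a shift. The cause of these changes was not tested. Of 614 values of single members under the alternatives, 594 stayed on their side of the threshold, 16 lost the call, 4 gained it and 0 called values changed sign. Most of these values were not called at the start and had no call to lose, so the total does not measure how stable the calls are. The 6 members with 1 probe set cannot change when only the choice of probe sets changes. *Tet3* and *Neil1*, which the dim filter leaves out, are not counted there as lost. No paired analysis was possible because each group has 1 array, and for the same reason no replicate could be left out.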
